A study of Solanum lycopersicum with 8 samples.

Results

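Xyloglucan endotransglucosylases were examined through 4 genes of the tomato fruit array, tXET-B2, XTH1, XTH3 and XTH6. The genes were chosen with earlier results of these data known, so the shares called among them do not test them against all probe sets. Members were every probe set whose gene symbol or synonym in the platform annotation is one of these names. The rule found 4 probe sets, 1 per gene, of 10038 that are not controls, and all 4 passed the filter on low signal. The RNA was extracted from peel of tomato (Solanum lycopersicum) fruit at the mature green stage, grown untreated in winter in a greenhouse heated to at least 12 °C. The wild type was cv. Ailsa Craig. The Aft mutant carries the Anthocyanin fruit allele, the atv mutant the atroviolacea allele, and the double mutant (Aft/Aft atv/atv) both. By the labels, anthocyanin was not significant in wild type and atv fruit, limited to spots in Aft fruit and strong in the double mutant. Each genotype had 2 biological replicates with 1 array each, giving 8 arrays, a number that limits how small a difference can be resolved. The titles name a cultivar only for the wild type, so line background and genotype cannot be told apart.

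Xyloglucan is a hemicellulose that coats and links cellulose microfibrils in the primary wall. Xyloglucan endotransglucosylase/hydrolases, the XTH family, cut a xyloglucan chain and join the cut end to another chain, so that a wall can be rebuilt while it grows or softens. The family is large, and its members are known for growing tissue and for fleshy fruit, where they act in the same wall as expansins, pectin-degrading enzymes and galactosidases. tXET-B2 was first cloned as a fruit-expressed member, and XTH1, also known as ext, is known from auxin-driven growth of the tomato hypocotyl.

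Arrays were compared after quantile normalization on the log2 scale, and a difference was called at an adjusted p of at most 0.05 (limma, adjusted over all 9493 probe sets tested). Replicate arrays correlated with r from 0.977 to 0.988 over the probe sets tested. The atv mutant arrays stood apart: their correlation with wild type arrays averaged 0.904, while that of Aft mutant arrays averaged 0.964 and that of double mutant arrays 0.947. The 3' minus 5' difference of control probe sets, a sign of RNA integrity, was 0.59 and 0.81 on the atv mutant arrays and lay between 0.52 and 0.92 over all 8. Of the differences called over all probe sets, 46.7% were higher in the atv mutant than in the wild type, against 60.9% on the deposited values. The share higher in the double mutant was 56.3% against the wild type (39.6% as deposited) and 56.2% against the atv mutant (31.0% as deposited), and 51.7% of the interaction terms were positive (31.1% as deposited). The median difference over all probe sets between double mutant and atv mutant was 0.10, and -0.13 as deposited. Signals of different probe sets are not set against each other here, since each has its own response.

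tXET-B2 and XTH3 were near the low end of the signal in the wild type and highest by far in the atv mutant. The deposited intensity of tXET-B2 was 90.9 and 67.0 on the wild type arrays, 168.1 and 168.9 on the Aft mutant arrays, 5746 and 4679.7 on those of the atv mutant and 177.8 and 149.8 on those of the double mutant. The lower quartile of all probe sets lay between 84.0 and 154.1 on the 8 arrays. After normalization the log2 intensity of tXET-B2 read 6.44 and 6.13 in the wild type, 7.81 and 7.19 in the Aft mutant, 12.39 and 12.21 in the atv mutant, and 7.51 and 7.58 in the double mutant. Both atv mutant arrays lay above all 6 others, both wild type arrays lay below all others, and the Aft and double mutant arrays overlapped.

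XTH3 had the same order of genotypes. Its deposited intensity was 79.8 and 46.8 in the wild type, 74.7 and 116.6 in the Aft mutant, 2913.9 and 2177.1 in the atv mutant, and 105.9 and 87.4 in the double mutant. The log2 intensity read 6.24 and 5.65 in the wild type, 6.66 and 6.67 in the Aft mutant, 11.40 and 11.13 in the atv mutant, and 6.81 and 6.78 in the double mutant. After normalization the 4 arrays of the Aft and double mutants spanned a narrow range just above the wild type. As deposited, Aft mutant 1 lay below wild type 1. The atv mutant stood clear of all 3 other genotypes on both scales.

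XTH1 gave a bright signal in every genotype. Its deposited intensity was 5859.6 and 5616.3 in the wild type, 7187.7 and 9976.7 in the Aft mutant, 9747 and 10158 in the atv mutant, and 12303 and 10763 in the double mutant. The log2 intensity read 12.41 and 12.45 in the wild type, 12.89 and 13.14 in the Aft mutant, 13.21 and 13.31 in the atv mutant, and 13.56 and 13.49 in the double mutant. No arrays of different genotypes overlapped on the normalized scale, although the gap from the higher Aft mutant array to the lower atv mutant array was only 0.07 and these arrays did overlap as deposited.

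XTH6 was higher in both genotypes that carry the Aft allele. Its deposited intensity was 87.0 and 75.4 in the wild type, 98.9 and 164.1 in the Aft mutant, 87.9 and 79.1 in the atv mutant, and 214.7 and 178.5 in the double mutant. The log2 intensity read 6.37 and 6.29 in the wild type, 7.10 and 7.14 in the Aft mutant, 6.01 and 6.24 in the atv mutant, and 7.79 and 7.84 in the double mutant. The double mutant arrays lay above the Aft mutant arrays, and these above the wild type and atv mutant arrays.

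**Figure D1:**
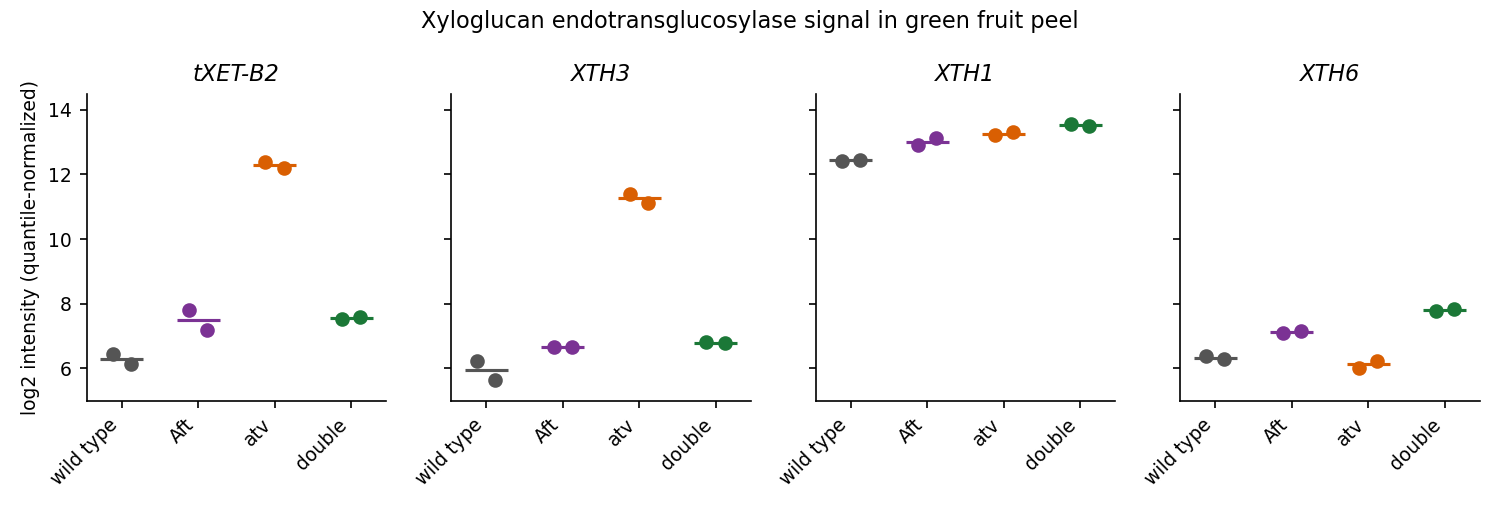
Log2 intensity after quantile normalization (y axis) of tXET-B2, XTH3, XTH1 and XTH6 by genotype (x axis); each point is 1 array and each line the mean of 2 arrays. tXET-B2 and XTH3 stand high only in the atv mutant, at means of 12.30 and 11.26, XTH1 lies between 12.41 and 13.56 on all 8 arrays, and XTH6 has its highest mean, 7.82, in the double mutant.

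The comparison of atv mutant and wild type describes what goes with this allele in fruit without significant anthocyanin. tXET-B2 rose by 6.02 on the log2 scale (SE 0.23, limma adjusted p = 5.2e-05), from 6.29 ± 0.22 to 12.30 ± 0.13 (SD, n = 2), or 64.7-fold. XTH3 rose by 5.32 (SE 0.21, adjusted p = 6.0e-05), from 5.94 ± 0.42 to 11.26 ± 0.20 (SD, n = 2), or 40.0-fold. The wild type signals of both genes lay below the lower quartile of their arrays and no detection call was used, so the size of these folds rests on values near the low end. XTH1 rose by 0.83 (SE 0.11, adjusted p = 0.0031), or 1.78-fold, from 12.43 ± 0.03 to 13.26 ± 0.07 (SD, n = 2). XTH6 was at -0.20 (adjusted p = 0.19), which did not pass, with a 95% interval of -0.47 to 0.07. Thus 3 of 4 members were higher, where 18.8% of all probe sets were called higher, 21.5% lower and 40.3% in either direction. The members' median difference was 3.08, against -0.11 over all probe sets tested. These 3 calls were also made in all 14 alternatives, with differences of 5.86 to 6.17 for tXET-B2, 5.02 to 5.61 for XTH3 and 0.75 to 0.89 for XTH1.

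The tissue held several cell types, and in RNA from whole peel a larger share of cells that express a gene cannot be told apart from more RNA per cell. Of 12 marker names for epidermis and cuticle, 3 were on the array, and their mean log2 intensity was 11.52 and 11.60 on the wild type arrays, 11.44 and 11.48 in the Aft mutant, 12.77 and 12.83 in the atv mutant, and 12.29 and 12.33 in the double mutant. Of these, LE16 and TSW12, both for lipid transfer proteins, rose 3.66-fold and 3.74-fold in the atv mutant (limma adjusted p = 0.00017 and 0.0004). ltpg1 was at 14.05 in the wild type and 13.99 in the atv mutant. The deposited intensity of ltpg1 was 16442 to 17956, near the array maxima of 19560 to 21786, which left little room for a rise. Of 5 marker names each for seed, trichome and vascular tissue, 1, 1 and 2 were on the array. The seed marker MAN2, a mannanase gene, had log2 values of 0.00 to 3.70 over the 8 arrays and lay below the signal minimum. The trichome marker MTS1, a terpene synthase gene, read 0.95 to 4.02. CEVI-1, a peroxidase gene listed for vascular tissue, read 0.15 to 5.41, with both double mutant arrays highest. TPRP-F1, a proline-rich wall protein gene on the same list, read 6.09 to 8.10, with both wild type arrays highest. How far these genes mark vascular tissue in this peel was not tested. The part of these cell types in the changes of the 4 genes was not tested.

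What goes with the Aft allele alone was read from the Aft mutant against the wild type, whose arrays also serve as controls for the other mutants. tXET-B2 stood 1.21 higher on the log2 scale (SE 0.23, limma adjusted p = 0.040), at 7.50 ± 0.44 (SD, n = 2), or 2.32-fold. XTH6 stood 0.80 higher (SE 0.11, adjusted p = 0.014), at 7.12 ± 0.03 against 6.33 ± 0.06 (SD, n = 2), or 1.74-fold. XTH1 stood 0.58 higher (SE 0.11, adjusted p = 0.048), at 13.02 ± 0.17 (SD, n = 2), or 1.50-fold. XTH3, at 6.67 ± 0.01 (SD, n = 2), was 0.72 above the wild type and did not pass (adjusted p = 0.14, 95% interval 0.21 to 1.24).

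So 3 of 4 members were called higher in the Aft mutant, where 2.78% of all probe sets were called higher, 2.8% lower and 5.58% in either direction. Their median difference was 0.76, against a median of 0.004 over all probe sets. The 2 Aft mutant arrays lay above the 2 wild type arrays for each of the 4 genes on the normalized scale. The share of all probe sets separated in this way was not counted, so no result is read from it. As deposited, XTH3 overlapped, at 74.7 on Aft mutant 1 and 79.8 on wild type 1. The calls themselves were not stable. None of the 4 was called on the deposited values, where the adjusted p was 0.058 for tXET-B2, 0.38 for XTH1 and 0.47 for XTH6. The call of tXET-B2 was made in 4 of 15 alternatives. It ended without wild type 1 (adjusted p = 0.12), wild type 2 (0.22), Aft mutant 1 (0.089) or any 1 array of the atv mutant or the double mutant (0.062 to 0.082). The call of XTH1 ended without any 1 of the 8 arrays (adjusted p 0.056 to 0.27). That of XTH6 was made in 10 of 15 alternatives, and ended without wild type 1 (0.089), wild type 2 (0.12), Aft mutant 1 (0.064) or Aft mutant 2 (0.071).

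Fruit with strong pigmentation were described by setting the double mutant against the same wild type arrays. XTH6 rose by 1.49 (SE 0.11, limma adjusted p = 0.0012) to 7.82 ± 0.04 (SD, n = 2), or 2.80-fold. XTH1 rose by 1.09 (SE 0.11, adjusted p = 0.0044) to 13.52 ± 0.05 (SD, n = 2), or 2.13-fold. tXET-B2 rose by 1.26 (SE 0.23, adjusted p = 0.022) to 7.55 ± 0.05 (SD, n = 2), or 2.40-fold. XTH3, at 6.79 ± 0.02 (SD, n = 2), was 0.85 above the wild type and missed the threshold (adjusted p = 0.052, 95% interval 0.34 to 1.37). In this comparison 3 of 4 members were higher, where 7.39% of all probe sets were called higher, 5.73% lower and 13.1% in either direction. The members' median was 1.18, against 0.04 over all probe sets.

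XTH1 was called higher in the double mutant in all 15 alternatives, and XTH6 in all but the deposited values (adjusted p = 0.053). The call of tXET-B2 was lost without wild type 1 (adjusted p = 0.077), wild type 2 (0.12), double mutant 1 (0.081) or double mutant 2 (0.11). XTH3 was called in 6 of 15 alternatives, among them the fit without both atv mutant arrays (adjusted p = 0.044), the fit without atv mutant 1 (0.046), atv mutant 2 (also 0.046) or wild type 1 (0.038).

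The double mutant was also set against each single mutant, to see what goes with each allele beside the other. Against the Aft mutant, only XTH6 was called, 0.69 higher in the double mutant (SE 0.11, limma adjusted p = 0.033), or 1.62-fold. That is 1 of 4 members, where 2.52% of all probe sets were called higher, 1.58% lower and 4.1% in either direction, and the call ended on the deposited values (adjusted p = 0.40) and without any 1 of the arrays of the wild type, the Aft mutant or the double mutant (0.078 to 0.19). tXET-B2 differed by 0.05 between the double mutant and the Aft mutant (adjusted p = 0.91, 95% interval -0.51 to 0.61) and XTH3 by 0.13 (adjusted p = 0.72, -0.39 to 0.64). The upper ends of these intervals lie below the differences of 6.02 and 5.32 that these genes showed between atv mutant and wild type. XTH1 was 0.51 higher (95% interval 0.23 to 0.79) and did not pass (adjusted p = 0.073).

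Against the atv mutant, tXET-B2 fell by 4.75 (SE 0.23, limma adjusted p = 8.0e-05) and XTH3 fell by 4.47 (SE 0.21, adjusted p = 7.5e-05) in the double mutant, so that the atv mutant was 27.0-fold and 22.2-fold higher. XTH6 rose by 1.69 (SE 0.11, adjusted p = 0.00021), or 3.22-fold. The double mutant signals of XTH3 and the atv mutant signals of XTH6 lay below the lower quartile of their arrays. The sizes of these folds thus rest on low signal, as do those of XTH6 against the wild type. XTH1 differed by 0.26 (adjusted p = 0.12, 95% interval -0.02 to 0.55), a difference that was called with arrays centred on their medians (0.47, adjusted p = 0.039). The 3 calls, 1 higher and 2 lower, stand beside 24.7% of all probe sets called higher, 19.3% called lower and 44% in either direction. They were made in all 14 alternatives.

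The interaction term asks whether the difference that goes with atv is the same with and without the Aft allele. Equally, it asks whether the difference that goes with Aft is the same with and without atv. Adding the separate differences of the 2 single mutants to the wild type gave an expected log2 intensity of 13.52 for tXET-B2 in the double mutant, where 7.55 was measured. The interaction was -5.97 (SE 0.32, limma adjusted p = 0.00032). For XTH3 the sum gave 11.99, 6.79 was measured, and the interaction was -5.19 (SE 0.29, adjusted p = 0.00038). For XTH6 the sum gave 6.92, below the 7.82 measured, with an interaction of 0.89 (SE 0.15, adjusted p = 0.012). For XTH1 the sum gave 13.85 against 13.52 measured, and the interaction of -0.32 did not pass (adjusted p = 0.21, 95% interval -0.72 to 0.08).

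Over all probe sets 24.2% had a called interaction, 12.5% positive and 11.7% negative, beside 1 positive and 2 negative among the 4 members. The calls of tXET-B2 and XTH3 were made in all 14 alternatives. The call of XTH6 ended on the deposited values (adjusted p = 0.46), without wild type 1 (0.059) and without double mutant 2 (0.052).

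**Figure D2:**
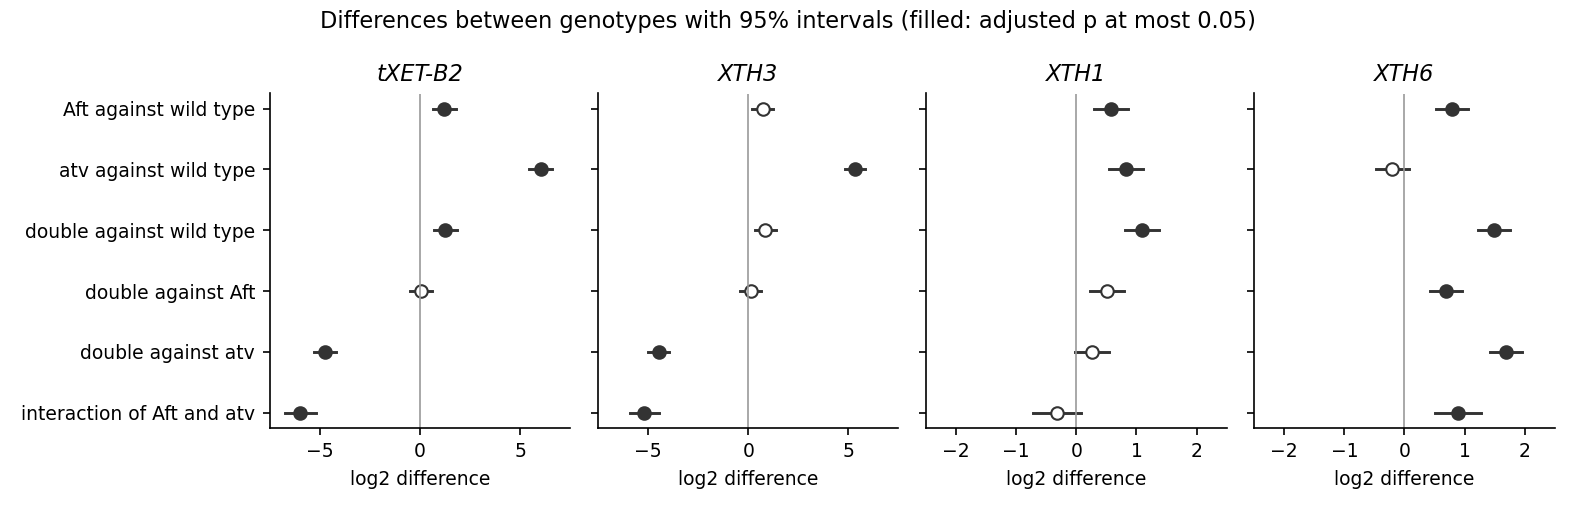
Log2 difference (x axis) of tXET-B2, XTH3, XTH1 and XTH6 in the 6 comparisons (y axis), with 95% intervals from limma; filled points have an adjusted p of at most 0.05, and the x axis of XTH1 and XTH6 spans a narrower range. tXET-B2 and XTH3 are at 6.02 and 5.32 in the atv mutant against the wild type and at -4.75 and -4.47 in the double mutant against the atv mutant.

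The order of the genotypes by level can be given with the neighbours that were not called different at the adjusted threshold. tXET-B2 and XTH3 ran wild type, Aft mutant, double mutant, atv mutant, with the Aft mutant and double mutant not called different and, for XTH3, the wild type and Aft mutant not either, although their 95% interval of 0.21 to 1.24 leaves out 0. XTH6 ran atv mutant, wild type, Aft mutant, double mutant, with the atv mutant and wild type not called different. XTH1 ran wild type, Aft mutant, atv mutant, double mutant. In this order the atv mutant was 0.25 above the Aft mutant (limma adjusted p = 0.13, 95% interval -0.04 to 0.53), by a comparison added after the data were seen. Of the neighbours in this order only the wild type and Aft mutant were called different (adjusted p = 0.048), in a call made in 2 of 15 alternatives. In the added comparison tXET-B2 and XTH3 were 4.80 and 4.60 higher in the atv mutant and XTH6 was lower (95% interval -1.27 to -0.73), where 20.2% of all probe sets were called higher, 23.5% lower and 43.7% in either direction. The call of XTH6 ended on the deposited values, at a difference of -0.61 (adjusted p = 0.15).

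Within the family on the array, 7 more genes with 9 probe sets were named, and all were tested. These were BR1, a brassinosteroid-regulated member, XTH5, XTH7, XTH16 with 3 probe sets, XET2, XET4 and LeXTH9 (LOC543916). XET2 was not in the list of names drawn up for this purpose and was added for its symbol. With 1 probe set per gene, 2 of the 7 were higher and 3 lower in the atv mutant than in the wild type, where 18.8% of all probe sets were called higher and 21.5% lower. In the Aft mutant 1 was higher and 1 lower (2.78% and 2.8% of all probe sets), and in the double mutant 1 was higher and none lower (7.39% and 5.73%). Counted by probe set, 3 of the 9 were higher and 1 lower in the Aft mutant and 3 higher in the double mutant, because the XTH16 probe set of highest mean signal is the one of the 3 not called there. Over all 11 family genes, the 4 members included, 5 were higher and 3 lower in the atv mutant, beside the same 18.8% and 21.5% of all probe sets (median 0.69, against -0.11).

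BR1 moved with tXET-B2 in the atv mutant and against it in the Aft mutant. Its log2 intensity read 6.74 and 6.84 in the wild type, 4.86 and 5.11 in the Aft mutant, 9.92 and 9.64 in the atv mutant, and 6.82 and 6.69 in the double mutant. BR1 rose by 2.99 in the atv mutant (SE 0.14, limma adjusted p = 9.0e-05), fell by 1.81 in the Aft mutant (SE 0.14, adjusted p = 0.0023), and differed by -0.03 between double mutant and wild type (adjusted p = 0.89, 95% interval -0.39 to 0.33). The interaction of BR1 was -1.21 (adjusted p = 0.011), lost as deposited (0.14), without wild type 1 (0.052) and without double mutant 2 (0.050). LeXTH9 rose by 2.81 in the atv mutant (SE 0.47, adjusted p = 0.0063). Its log2 intensity read 5.26 and 5.49 in the wild type, 5.96 and 5.87 in the Aft mutant, 7.84 and 8.53 in the atv mutant and 5.90 and 4.50 in the double mutant, where the replicates were far apart. As deposited, LeXTH9 was at 39.9 and 41.8 in the wild type. BR1 was at 111.7 and 109.8 in the wild type and at 21.2 and 37.4 in the Aft mutant. These values lay below the lower quartile of their arrays. The sizes of the rises of both genes in the atv mutant and of the fall of BR1 thus rest on low signal.

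XTH16, XTH5 and XTH7 were called lower in the atv mutant than in the wild type. The 3 probe sets of XTH16 fell by 1.93, fell by 1.89 and fell by 1.34 (limma adjusted p = 0.0019, 0.00018 and 0.0067). In the Aft mutant they were at 0.71 (adjusted p = 0.19), 1.20 (0.0039) and 1.43 (0.024), and in the double mutant at 0.12 (0.74), 1.05 (0.0052) and 1.79 (0.0078), so they disagreed there on size and on the call. The call at 1.43 ended without any 1 array of the wild type, the Aft mutant or the double mutant (0.053 to 0.15), and that at 1.79 without wild type 1 (0.053) or wild type 2 (0.059). XTH5 fell by 1.69 in the atv mutant (SE 0.21, adjusted p = 0.0021) and was at 0.30 in the Aft mutant and -0.41 in the double mutant, neither passing. XTH7 fell by 0.41 in the atv mutant (SE 0.10, adjusted p = 0.024), and was 0.56 higher in the Aft mutant (0.036) and 0.63 higher in the double mutant (0.016). The 3 calls of XTH7 ended as deposited (adjusted p 0.13 to 0.28) and without wild type 1 or wild type 2 (0.090 to 0.23). They also ended without Aft mutant 1 (0.10), Aft mutant 2 (0.12), double mutant 1 or double mutant 2 (0.095 and 0.096) in the Aft comparison, without atv mutant 1 (0.060), double mutant 1 (0.053) or double mutant 2 (0.054) in the atv comparison, and without double mutant 1 (0.087) or double mutant 2 (0.098) in that of the double mutant. XET2 and XET4 passed in none of the 3 comparisons with the wild type. XET2 was at 0.69 in the atv mutant (adjusted p = 0.052), called as deposited (0.038), with the higher signal minimum (0.038) and without atv mutant 1 (0.039).

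**Figure D3:**
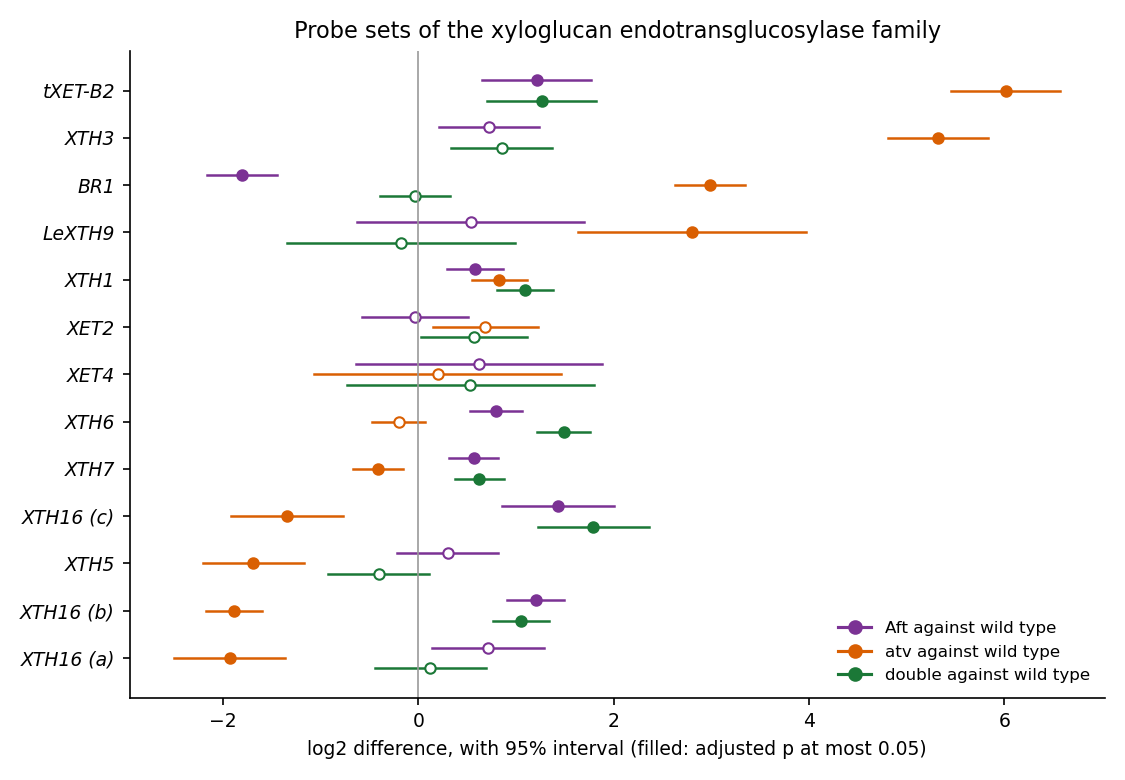
Log2 difference from the wild type (x axis) with 95% intervals for 13 probe sets of the family (y axis), in the Aft, atv and double mutants; filled points have an adjusted p of at most 0.05 and the letters a, b and c mark the 3 probe sets of XTH16. In the atv mutant the family runs from -1.93 for an XTH16 probe set to 6.02 for tXET-B2.

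Other genes that modify the wall, found by symbol from a list of expansins, polygalacturonases, pectin methylesterases, galactosidases, cellulases, mannanases, xylosidases and structural proteins, had calls in both directions in each comparison. On the array 40 such genes were named, and 32 were tested. In the atv mutant 6 were higher and 10 lower than in the wild type, where 18.8% of all probe sets were called higher and 21.5% lower (median -0.08, against -0.11 over all probe sets). The beta-galactosidase genes TBG4 and TBG3 fell by 2.64 and fell by 0.95 (limma adjusted p = 6.1e-05 and 0.00081), and TPRP-F1, a proline-rich wall protein gene, fell by 1.93 (adjusted p = 0.0006). In the Aft mutant 6 were higher and 4 lower, where 2.78% of all probe sets were called higher and 2.8% lower (median -0.07, against 0.004). Calls of EXP2, TBG1, TBG3, TBG4 and the pectin methylesterase gene PME2.1 ended on the deposited values (limma adjusted p 0.20 to 0.47). Those of the genes named next held there, and EXP1 and XOPG1 were not recomputed. TLRP, a tyrosine-rich wall protein gene, rose by 2.11 (adjusted p = 0.002), TPRP-F1 fell by 1.81 (0.0033), and the expansin EXPA6 fell by 1.39 by 1 probe set (0.0023), with -2.08 by the other, which did not pass (0.41).

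In the double mutant 5 wall genes were higher and 8 lower than in the wild type, where 7.39% of all probe sets were called higher and 5.73% lower (median 0.07, against 0.04). TLRP rose by 2.33 (limma adjusted p = 0.0011), the pectin methylesterase gene PME2.1 fell by 1.05 (0.0021), and EXPA6 fell by 2.63 (0.00025), with -1.85 by its other probe set (0.27). Between the double mutant and the atv mutant 7 were higher and 8 lower, where 24.7% and 19.3% of all probe sets were (median -0.11, against 0.10). Between the double mutant and the Aft mutant 1 was higher and 3 lower, where 2.52% and 1.58% of all probe sets were (median -0.01, against 0.02). The interaction was called for 7 of the 32, 3 positive and 4 negative, beside 12.5% positive and 11.7% negative of all probe sets. TBG4 was at 2.30 (adjusted p = 0.00052), TPRP-F1 at 2.13 (0.0027) and the expansin EXP2 at -1.88 (0.00068).

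The genes nearest in pattern were found by the root mean square difference between log2 values, each gene centred on its own mean over the 8 arrays, among 693 other named probe sets tested. For tXET-B2 the nearest was XTH3, at 0.31, where the median candidate was at 2.37. Next were MTSHP, a mitochondrial small heat shock protein gene, at 0.63, and HSP21, a chloroplast small heat shock protein gene, at 0.67. For XTH3 the nearest was tXET-B2, followed by the invertase gene LIN8 at 0.49 and ER24, an ethylene-responsive transcriptional coactivator gene, at 0.53. The neighbours have a high atv mutant level in common with tXET-B2 and XTH3. In log2 intensity MTSHP had means of 6.94 in the wild type, 7.06 in the Aft mutant, 12.78 in the atv mutant and 6.71 in the double mutant. LIN8 had means of 5.50, 5.51, 9.76 and 5.66 in the same order.

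**Figure D4:**
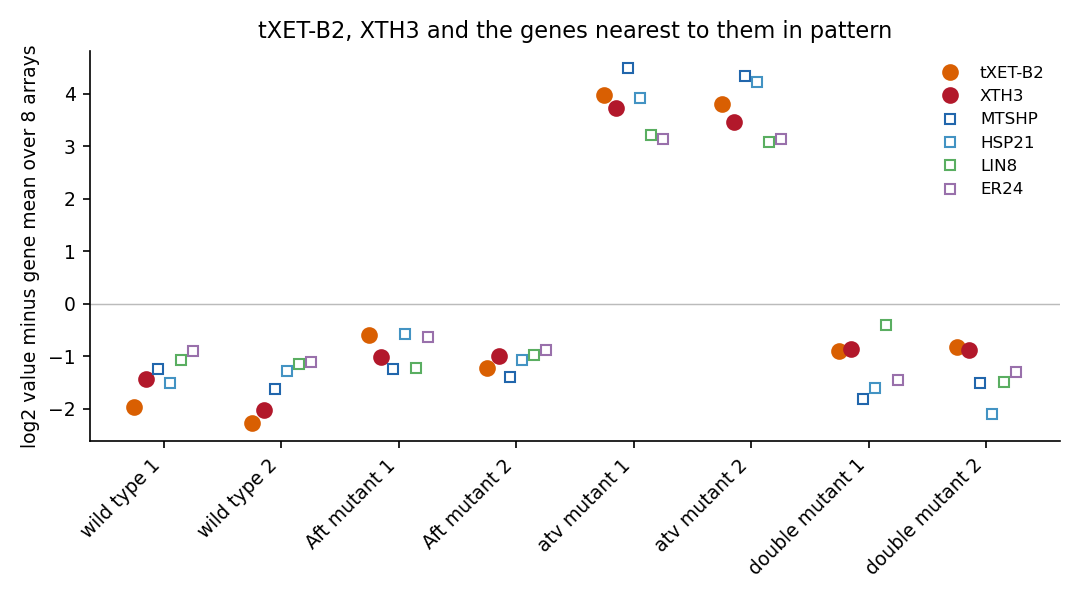
Log2 value minus the gene's own mean over 8 arrays (y axis) on each array (x axis) for tXET-B2 and XTH3 (filled circles) and for MTSHP, HSP21, LIN8 and ER24, the genes nearest to them (open squares). All 6 genes are above their mean on both atv mutant arrays and below it on the 6 other arrays.

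tXET-B2 and XTH3 were each other's nearest gene in all 11 alternatives run, which were 3 other scalings and each array left out in turn. Both have most of their range between the atv mutant arrays and the rest. No alternative here left out both atv mutant arrays, so nearness apart from that difference was not tested. XTH1 and XTH6 had smaller ranges and less settled neighbours. For XTH1 the nearest was ACS6, an ACC synthase gene of ethylene formation, at 0.17 (median candidate 0.55), followed by the protein kinase gene MPK3 at 0.21 and the Aux/IAA gene IAA16 at 0.24, and ACS6 stayed first in 6 of 11 alternatives. For XTH6 it was LOC543993 (BCCP), a biotin carboxyl carrier protein gene, at 0.25 (median candidate 0.75), followed by the subtilisin-like protease gene P69A at 0.26 and PGcat, a symbol that the list of wall genes did not hold, at 0.27, and BCCP stayed first in 5 of 11. Between members, XTH1 and XTH6 differed by 0.56, tXET-B2 and XTH1 by 2.16, and tXET-B2 and XTH6 by 2.68. Probe sequences were not used here, so whether the probe sets of tXET-B2 and XTH3 also bind each other's transcripts, or those of the related gene tXET-B1, was not tested.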

How the data were processed

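The authors deposited 1 linear intensity per probe set and array of the Affymetrix Tomato Genome Array. GCRMA is named, with no version, per the submitters' processing notes; the sources used here do not say to what the intensities were scaled. Because array medians differed (514.5 to 755.4), all arrays were quantile-normalized, as planned for that case, values under 1 set to 1, and log2 taken. Control probe sets (171) were dropped. The rest were tested at a log2 value of at least 4 in at least 2 arrays, whatever the genotype, which 9493 of 10038 passed. A limma 3.58.1 model (R 4.3.3) with 1 mean per genotype took in all 8 arrays (4 residual and 1.77 prior degrees of freedom), and tests were two-sided with Benjamini-Hochberg adjustment over all probe sets tested. Levels carry the SD of 2 replicates, and differences the SE or 95% interval of the model.

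The annotation names 909 probe sets by 1 symbol each, and 885 matched a current gene table of RefSeq by gene identifier, through which synonyms were read without regard to case. Coordinates and sequences were not used here. The members and lists were chosen with earlier results of these data known. Wall genes named are the 3 with the lowest p per comparison, counted with the probe set of highest mean signal per gene, and the 3 nearest genes are named for each member. Alternatives were the deposited values, median centring, a floor of 16, no filter, a minimum of 6, the replicate number as a block, and each array left out. The comparison of atv mutant with Aft mutant and the fits without both atv mutant arrays were added after seeing the data.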

Additional observations from a re-analysis of the deposited data

Results flagged for a closer look

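Allele and line background cannot be told apart in the interaction terms below. Where the term was called (limma), the difference that goes with atv was not the same with and without the Aft allele. Among the members this held for tXET-B2 (-5.97, adjusted p = 0.00032), XTH3 (-5.19, 0.00038) and XTH6 (0.89, 0.012). In the rest of the family it held for BR1 (-1.21, 0.011), LeXTH9 (-3.52, 0.016) and the 3 probe sets of XTH16 (1.34, 1.74 and 1.71, at 0.034, 0.0016 and 0.016). The signs differ within the family: tXET-B2, XTH3, BR1 and LeXTH9 were lower in the double mutant than the sum of the single differences, and XTH6 and XTH16 higher. The call of LeXTH9 ended without wild type 1 (adjusted p = 0.061), wild type 2 (0.052) or Aft mutant 1 (0.052). That of the XTH16 probe set at 1.34 ended as deposited (0.17) and without wild type 1 (0.11), wild type 2 (0.098), Aft mutant 1 (0.095), Aft mutant 2 (0.065) or double mutant 1 (0.089), and that of the one at 1.71 as deposited (0.065) and without wild type 1 (0.062), wild type 2 (0.057), Aft mutant 1 (0.054), double mutant 1 (0.051) or double mutant 2 (0.052). Groups of 2 arrays allow no test for single outlying samples.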

How the results depend on the processing

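Of 404 differences of the 4 members recomputed under alternatives, 352 kept their side of the threshold, 45 were no longer called, 7 became called and none that was called reversed; the sign changed in 3 uncalled values, of tXET-B2 (double mutant against Aft mutant) and XTH6 (atv mutant against wild type). On the deposited values the members called fell from 3 to 0 in the Aft mutant and from 1 to 0 between double mutant and Aft mutant, and the probe sets called in all fell from 530 to 290 (Aft mutant), 3829 to 1987 (atv mutant), 1246 to 442 (double mutant), 389 to 76 (double against Aft mutant), 4178 to 2252 (double against atv mutant) and 2293 to 872 (interaction). With no filter 1 member was called in the Aft mutant. Without both atv mutant arrays 1 member was called in the Aft mutant, and in all 2269 probe sets in the double mutant and 903 between double and Aft mutant. Leaving out 1 array at a time gave 0 to 1 members in the Aft mutant, 3 to 3 in the atv mutant, 2 to 4 in the double mutant, 0 to 1 between double and Aft mutant, 3 to 3 between double and atv mutant and 2 to 3 for the interaction. The counts over all probe sets then ran from 205 to 562, 2124 to 3825, 355 to 2211, 77 to 878, 2584 to 4237 and 1172 to 2606 in the same order. With the replicate number as a block, a pairing the design does not give, the members called were 2, 3, 4, 1, 3 and 3 in that order. Deviations of same-numbered arrays correlated at -0.04 to 0.18. Wild type, atv mutant and double mutant arrays correlated best with arrays of their own number (means of 0.05 to 0.11). The Aft mutant arrays did not (mean -0.02). The causes were not tested. The number of arrays, and signals near background for tXET-B2, XTH3 and XTH6, limit the precision.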
